A study of Mus musculus with 93 samples.

Results

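Macrophages sorted from the mouse kidney after birth were compared with those sorted before birth. The comparison covers the 10 libraries that the labels give as kidney and as Mac (macrophage), of 93 libraries in the series. The 4 embryonic libraries are 2 from E14.5 and 2 from E18.5, and the 6 postnatal libraries are 2 each from P2, P8 and P21, where E stands for embryonic days and P for days after birth. Each library is bulk SMART-Seq2, a full-length cDNA method for small cell inputs, on polyA RNA of sorted cells. The labels used here name no strain, genotype, sex, treatment or sort gate for these groups, and they do not say whether replicates are separate mice or repeat preparations. Hence the p-values below rest on library-to-library spread alone, part of which may be technical.

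Tissue macrophages of the embryo are seeded from yolk sac and fetal liver progenitors, and in many organs cells derived from blood monocytes join them after birth. Kidney macrophages lie between the tubules, depend on the receptor Csf1r, carry the fractalkine receptor Cx3cr1, and in the adult present antigen on major histocompatibility complex (MHC) class II. MHC class I molecules pair a heavy chain with B2m and display peptides from inside the cell, whereas MHC class II molecules display peptides taken up from outside and need the invariant chain Cd74 for their assembly.

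The measure is the gene level, a log2 value summed over the deposited values of a gene's transcripts after a common floor of 5.37 was set under them, so that a level of 5.37 means not detected. Between 14927 and 23951 of 37521 transcripts lay above the floor per kidney library. The lowest 2 numbers, 14927 and 17299, were those of the P2 libraries. These also resembled each other least (Pearson r 0.396 across the levels of the genes tested below, against 0.512 to 0.554 at the other ages). The postnatal libraries had 18601 ± 2116 detected transcripts (SD, n = 6) and the embryonic ones 21159 ± 2373 (SD, n = 4), an exact two-sided permutation test giving p = 0.11. P8 replicate 1 had a lowest value of 1.83, against 3.28 to 4.54 in the other 9 libraries. Some of the results below, but not all, are given both with and without the P2 libraries.

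Macrophage genes were present in all 10 libraries. Of 29 core macrophage genes, 27 to 29 were detected per library, and their mean level was 11.53 to 12.98 before and 12.37 to 13.91 after birth. Cd79a and Ms4a1, which are B cell genes, were at the floor throughout. However, 4 or 5 of 9 measured B cell markers were detected in each library. The mean level of the B cell markers reached 8.55 in P21 replicate 2. The mean levels of T and NK cell, megakaryocyte and neutrophil markers stayed between 5.37 and 6.37. In P21 replicate 1, however, proximal tubule markers had a mean level of 13.48, beside 13.44 for its core macrophage genes, erythroid markers one of 11.36 and endothelial markers one of 10.96.

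Of the 9443 genes tested, 3 changed between the embryonic and the postnatal libraries (0.0318%), and all 3 were higher after birth. They were the class I heavy chain genes H2-K1 and H2-D1 and the chemokine gene Cxcl16. A gene was called where limma, fitted to the 10 libraries with 1 mean per age, gave a Benjamini-Hochberg adjusted p under 0.05 and a log2 difference of at least 1. Before adjustment 693 genes had a p under 0.05. The same contrast was also taken from a fit to all 48 Mac libraries of E14.5 to P21 in 5 tissues, called the 48-library fit here, in which the spread is shared with brain, liver, lung and skin. It called 42 genes higher (0.319% of 13162) and 13 lower (0.0988%) in the postnatal kidney. Among the 10 libraries the count was 0 when E14.5 replicate 1, E18.5 replicate 1 or 2, or P21 replicate 1 or 2 was left out, and it was 5 without P2 replicate 2.

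Among the class I genes, H2-K1 (chromosome 17, 33996017 to 34000347 on the minus strand, mm10) was at 11.80 and 12.01 at E14.5, 14.05 and 14.11 at E18.5, 15.21 and 15.35 at P2, 15.07 and 15.43 at P8, and 16.47 and 16.13 at P21. Every postnatal library stood above every embryonic one, and the E14.5 libraries were the lowest. The mean rose from 12.99 ± 1.26 (SD, n = 4) to 15.61 ± 0.56 (SD, n = 6), a log2 difference of 2.62 ± 0.30 (SE, adjusted p = 0.0098 by limma).

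H2-D1 (chromosome 17, 35262730 to 35267499 on the plus strand) was at 11.31 and 11.48 at E14.5, 14.03 and 14.58 at E18.5, 14.88 and 14.87 at P2, 14.88 and 15.43 at P8, and 16.98 and 16.53 at P21. The groups again did not overlap, and the P21 libraries were the highest. The log2 difference was 2.75 ± 0.32 (SE, adjusted p = 0.0098 by limma), and in the 48-library fit the adjusted p was 5.4e-06. H2-K1 and H2-D1 are near-identical in much of their sequence, so how reads were divided between them is uncertain.

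B2m, the light chain that both heavy chains need, was at 11.72 and 11.10 at E14.5, 13.47 and 14.27 at E18.5, 15.68 and 13.14 at P2, 13.34 and 14.31 at P8, and 15.54 and 15.48 at P21. Its groups overlapped, since one P2 and one P8 library lay below an E18.5 library. The log2 difference of 1.94 ± 0.51 (SE) did not pass the test among the 10 libraries (adjusted p = 0.49) and did in the 48-library fit (adjusted p = 0.046). Of the 14 genes listed for class I and peptide loading, 2 were called, 11 had a positive difference, and the median difference was 1.13, beside 0.09 over all genes tested. With quantile normalization the list's median was 0.70 and with a common median 0.76, and both kept 11 positive members. The mean level of the list was 9.93 and 9.92 at E14.5 and 11.1 and 11.6 at E18.5. It was 10.81 and 11.75 at P2, 10.69 and 11.73 at P8, and 12.59 and 12.7 at P21. The list was thus lowest at E14.5 and highest at P21, and at P2 and P8 it spanned the E18.5 levels. Tap1, a subunit of the peptide transporter, had a difference of 0.64 ± 0.78 (SE, adjusted p = 0.91).

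The class I and class II genes are shown here with the 120 bases before their RefSeq start (GRCm38.p6), since the results turn on these genes and they lie in one region of chromosome 17. Capitals mark CCAAT or its reverse complement ATTGG, searched on both strands. The windows are 17:34000348-34000467 (minus strand, the first of 2 listed starts) for H2-K1, 17:35262974-35263093 (plus) for H2-D1, 17:34287824-34287943 (minus) for H2-Aa and 17:34305747-34305866 (plus) for H2-Eb1.
H2-K1: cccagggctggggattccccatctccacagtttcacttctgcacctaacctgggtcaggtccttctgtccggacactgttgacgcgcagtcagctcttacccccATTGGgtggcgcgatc
H2-D1: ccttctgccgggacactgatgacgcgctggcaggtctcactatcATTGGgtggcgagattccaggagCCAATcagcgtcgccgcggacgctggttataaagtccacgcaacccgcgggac
H2-Aa: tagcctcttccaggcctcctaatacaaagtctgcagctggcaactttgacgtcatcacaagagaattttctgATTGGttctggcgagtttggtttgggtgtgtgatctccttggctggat
H2-Eb1: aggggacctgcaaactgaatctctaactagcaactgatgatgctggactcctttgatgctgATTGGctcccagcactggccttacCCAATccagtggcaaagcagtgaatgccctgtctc
H2-K1 and H2-Aa hold 1 match each, 16 and 48 bases before the start. H2-D1 and H2-Eb1 hold 2 each, the first 76 and 59 bases and the last 53 and 35 bases before the start. The H2-D1 window lies inside the gene span given above, because the RefSeq start is downstream of the start of that span. Its match positions depend on the start used. Windows of this length hold a match in 22.1% of 27025 genes and in 26.3% of the 7217 tested genes with a window, so a match is common. H2-Ab1, Cd74, Ciita and Cxcl16 are named only.

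Cxcl16 (chromosome 11, 70453983 to 70459984 on the minus strand), a membrane-bound chemokine that is also a scavenger receptor, was at 9.48 and 9.28 at E14.5, 10.49 and 11.66 at E18.5, 12.86 and 13.63 at P2, 12.67 and 13.56 at P8, and 15.01 and 15.21 at P21. No postnatal library was as low as an embryonic one. The mean rose from 10.23 ± 1.09 (SD, n = 4) to 13.82 ± 1.07 (SD, n = 6), a log2 difference of 3.59 ± 0.49 (SE, adjusted p = 0.032 by limma). The calls of H2-K1, H2-D1 and Cxcl16 were lost with either rescaling of the libraries. They were also lost with 2 groups in place of 1 mean per age (SE 0.52, 0.64 and 0.67, adjusted p = 0.30, 0.42 and 0.27 by limma). In that fit the differences between ages within each period, before and after birth, are part of the spread. The sign of each gene's difference was positive in every alternative tried.

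The MHC class II genes had the largest median difference of any list in the fit to the 10 libraries, where 6 members were tested. Over the 10 members tested in the 48-library fit the median was 2.54, against 2.58 for 2 loop and distal nephron genes. The highest class II levels were at P21. H2-Aa, a class II alpha chain, was at 5.37 and 5.37 at E14.5, 5.37 and 7.46 at E18.5, 6.22 and 5.87 at P2, 7.97 and 8.43 at P8, and 17.24 and 16.97 at P21. The P21 libraries stood far above all others, and the P2 libraries lay within the embryonic range. The beta chain genes had the same order of ages, H2-Ab1 reaching 17.56 and 17.51 and H2-Eb1 17.31 and 16.93 at P21.

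Cd74, the invariant chain, was at 8.80 and 5.37 at E14.5, 8.18 and 10.28 at E18.5, 6.35 and 9.48 at P2, 9.85 and 12.72 at P8, and 18.56 and 18.31 at P21. Both P2 libraries fell within the embryonic range, so the groups overlapped. Ciita, the transactivator of class II genes, was at the floor in the 8 libraries before P21 and at 10.67 and 12.34 at P21.

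In the fit to the 10 libraries 0 of 6 class II genes tested were called (10 of 11 listed were measured). All 6 differences were positive, with a median of 4.47. However, H2-Aa, H2-Ab1 and H2-Eb1 were at the floor in every embryonic library but E18.5 replicate 2, and entered the test mainly through postnatal libraries. The sign of their differences was thus close to fixed. For H2-Aa the difference was 4.56 ± 0.90 (SE, adjusted p = 0.34 by limma) and for Cd74 4.39 ± 0.98 (SE, adjusted p = 0.40). Without the P2 libraries 4 of the 6 were called higher, among 10 called genes in all (0.11% of 9065), with a difference of 6.76 for H2-Aa and 6.70 for Cd74 (adjusted p = 0.011 for each). The 48-library fit called the same number, 4 of 10 tested, and gave Cd74 an adjusted p of 0.0017 and H2-Eb1 one of 0.00031.

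**Figure D1:**
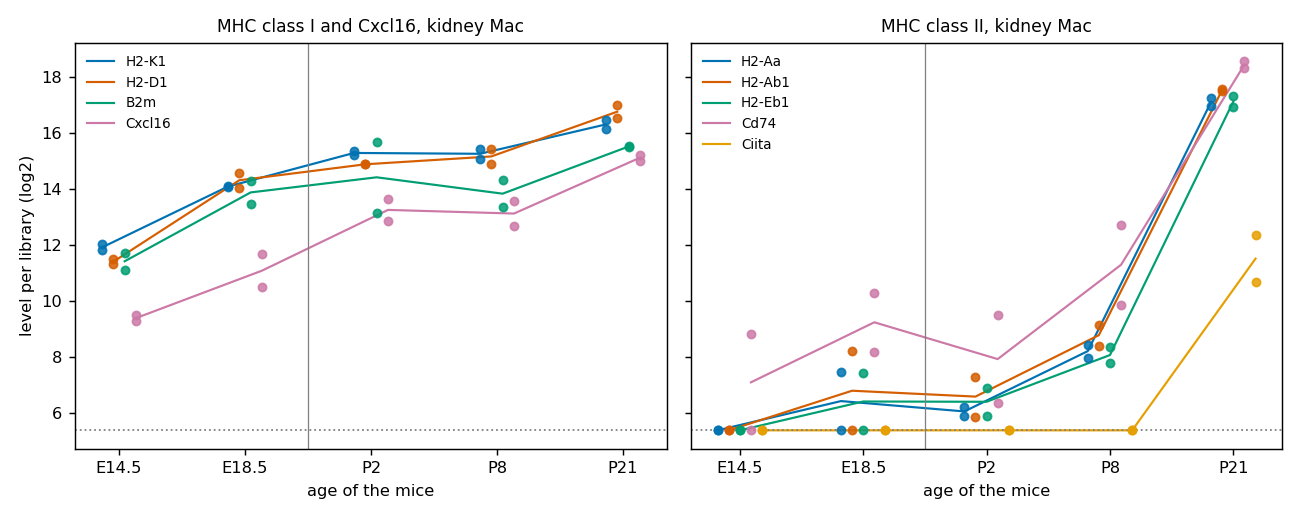
Level (log2) of MHC class I genes and Cxcl16 (left) and of MHC class II genes (right) by age in kidney Mac, with 1 point per library, lines through the mean of each age, a dotted line at the floor of 5.37 and a vertical line at birth. H2-K1 and H2-D1 were already at 14.03 to 14.58 at E18.5, whereas the plotted class II genes other than Cd74 were at 9.14 or less until P8 and at 10.67 to 17.56 at P21.

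The change within the postnatal period was tested as P21 minus P8, each with 2 libraries. Limma on the 10 libraries called 0 genes (0.0% of 9443), with 854 at an unadjusted p under 0.05, and the 48-library fit called 198 higher (1.5% of 13162) and 55 lower (0.418%). In that fit 5 of 10 class II genes were higher at P21. H2-Eb1 differed by 9.06 (adjusted p = 4.9e-06), H2-Aa by 8.90 (adjusted p = 0.00021) and Cd74 by 7.15 (adjusted p = 0.00033). In the fit to the 10 libraries the same difference of H2-Aa had an SE of 1.39 and an adjusted p of 0.18.

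The P21 libraries, which had the highest class II levels, also had the highest levels of proximal tubule genes. The 11 measured proximal tubule markers had a mean level of 13.48 and 10.85 in the P21 libraries, 6.10 and 7.63 at P8, and 5.61 to 6.04 at all earlier ages. All 11 were detected in both P21 libraries, against 2 to 4 at P2 and before. Markers of the loop and distal nephron had a mean level of 8.05 and 7.39 at P21 and 7.54 and 7.66 at P8, against 5.37 to 6.20 earlier. Collecting duct markers were highest in P2 replicate 2 (6.82) and at 5.63 and 5.64 at P21.

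Erythroid markers had a mean level of 11.36 and 9.29 at P21, 6.26 and 6.53 at P8, 6.0 and 9.15 at P2, and 6.45 to 8.14 before birth. Endothelial markers reached 10.96 in P21 replicate 1 alone and were at 7.07 or less elsewhere. Dendritic cell markers were at 5.87 to 7.0, and their highest value, 7.0, was in P21 replicate 1. B cell markers had a mean level of 6.48 to 7.15 before birth and of 7.12 to 8.55 after it, and all 5 members tested had positive differences that were not called, with Cd79a and Ms4a1 at the floor. The part of other cells in the postnatal differences was not tested, and in bulk RNA fewer cells of a type and less RNA per cell cannot be told apart.

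**Figure D2:**
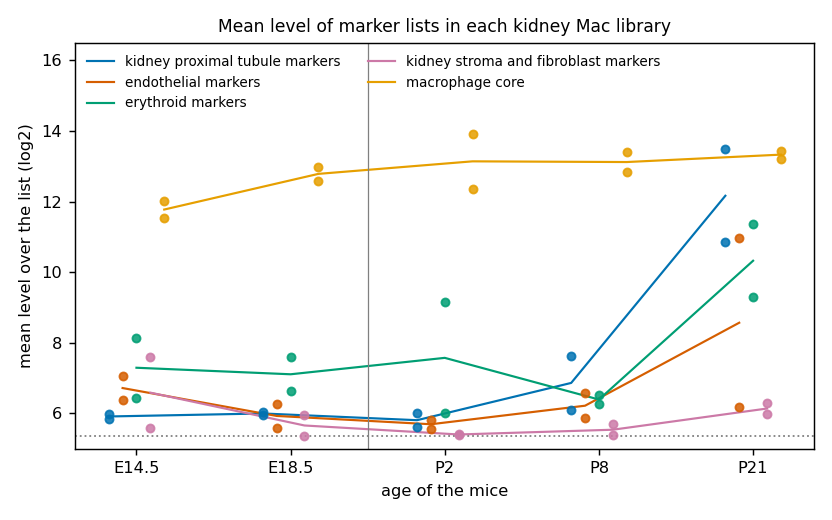
Mean level (log2) of 5 marker lists in each kidney Mac library by age, with lines through the mean of each age and a dotted line at the floor. Proximal tubule markers stood at 13.48 and 10.85 at P21 against 5.61 to 7.63 earlier, while the core macrophage genes stayed between 11.53 and 13.91.

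Other genes were lower at P21 than at P8. Hmox1, the heme-degrading enzyme, was at 11 and 12.62 at E14.5, 10.78 and 13.36 at E18.5, 13.40 and 13.86 at P2, 14.15 and 14.47 at P8, and 9.06 and 11.34 at P21. The P21 libraries were below both P8 libraries, and the postnatal group spanned the embryonic one. Its P21 minus P8 difference was -4.11 (adjusted p = 0.40 among the 10 libraries, 0.036 in the 48-library fit).

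Ccl7, a chemokine that attracts monocytes, was at 8.83 and 8.60 at E14.5, 9.09 and 10.64 at E18.5, 13.20 and 10.68 at P2, 10.79 and 9.60 at P8, and at the floor in both P21 libraries. F13a1, the coagulation factor XIII A chain found in monocytes and some tissue macrophages, was at 11.96 to 13.63 until P8 and at 9.70 and 5.48 at P21. Both were called lower at P21 in the 48-library fit, by -4.82 (adjusted p = 0.016) and -5.50 (adjusted p = 0.013).

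The iron exporter gene Slc40a1 was at 15.00 and 14.61 at P8 and 9.96 and 11.27 at P21, and the mannose receptor gene Mrc1 was at 15.21 and 15.66 at P8 and 13.29 and 14.02 at P21. Stab1, a scavenger receptor gene, was at 17.79 and 16.78 at P8 and 15.08 and 15.29 at P21. For these 3 genes the P21 libraries were the lowest or among the lowest of the postnatal period, but limma did not call them in either fit (adjusted p = 0.085, 0.27 and 0.40 in the 48-library fit).

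Within the embryonic period, E18.5 minus E14.5, limma called 0 genes (0.0% of 9443), with 273 at an unadjusted p under 0.05, and the 48-library fit called 7. H2-K1 was higher at E18.5 by 2.17 ± 0.46 and H2-D1 by 2.91 ± 0.49 (SE), with adjusted p = 1.0 and 0.75 by limma, so neither difference passed.

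Receptors and effectors of macrophages were present at all ages. Csf1r, the receptor for the growth factor that keeps macrophages alive, was at 14.37 and 15.14 at E14.5, 15.14 and 15.98 at E18.5, 16.68 and 16.18 at P2, 16.30 and 16.08 at P8, and 16.37 and 16.65 at P21. Every postnatal library was above every embryonic one, as for 72 genes in all (0.762% of 9443), while 37 genes had every postnatal library below (0.392%). The log2 difference of 1.22 ± 0.28 (SE) was not called (adjusted p = 0.40 by limma).

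Cd14, a co-receptor for bacterial lipopolysaccharide, was at 9.83 and 8.37 at E14.5, 11.39 and 10.96 at E18.5, 13.56 and 12.67 at P2, 12.12 and 12.36 at P8, and 14.66 and 14.94 at P21. Its groups did not overlap either, and the E14.5 libraries were lowest. The difference of 3.24 ± 0.52 (SE) had an adjusted p of 0.11 among the 10 libraries, 0.027 without P2 and 0.0023 in the 48-library fit.

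Cx3cr1 was at 12.53 and 13.14 at E14.5, 13.63 and 13.95 at E18.5, 13.61 and 13.06 at P2, 15.25 and 13.77 at P8, and 13.88 and 14.97 at P21. The groups overlapped between 13.06 and 13.95. The difference of 0.78 ± 0.43 (SE) did not pass the test (adjusted p = 0.75 by limma) and was -0.24 with quantile normalization.

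The complement gene C1qa, 1 of 3 that make up the C1q molecule, was at 11.36 and 13.20 at E14.5, 14.08 and 15.01 at E18.5, 14.72 and 12.47 at P2, 14.77 and 15.44 at P8, and 16.31 and 16.59 at P21. Both P2 libraries and P8 replicate 1 fell within the embryonic range, and the P21 libraries were above all others. The differences of C1qa, C1qb and C1qc were 1.64, 1.69 and 1.37, none of them called (adjusted p = 0.52, 0.51 and 0.51 by limma).

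Over the 29 core macrophage genes, 25 differences were positive with a median of 1.07, beside 0.09 for all genes, and 0 were called by limma in the 10 libraries and 2 in the 48-library fit. After quantile normalization 16 of the 29 remained positive, with a median of 0.18, so this shift depended on the scaling. The same held for 22 lysosome genes, of which 21 were positive with a median of 1.08 and 16 with a median of 0.22 after quantile normalization, and for 21 cytokine and chemokine receptor genes (19 positive, median 1.15, then 14 and 0.36). Among lysosome genes, Ctsb, a cathepsin protease, was at 13.41 to 15.21 before and 14.67 to 16.59 after birth.

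All 13 mitochondrially encoded genes had positive differences, with a median of 1.06, and 11 after quantile normalization, with a median of 0.12. Their mean level was 13.06, 11.13, 12.39 and 12.57 in the embryonic libraries and 14.21, 13.65, 11.90, 12.58, 14.12 and 13.80 in the postnatal ones. The median shrank with quantile normalization as those of the macrophage lists did. E14.5 replicate 1 had the highest embryonic mitochondrial mean (13.06) and the lowest core macrophage mean (11.53). P2 replicate 1 had the highest mean of both lists, 14.21 and 13.91. The part of mitochondrial RNA in the medians of the macrophage lists was not tested.

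**Figure D3:**
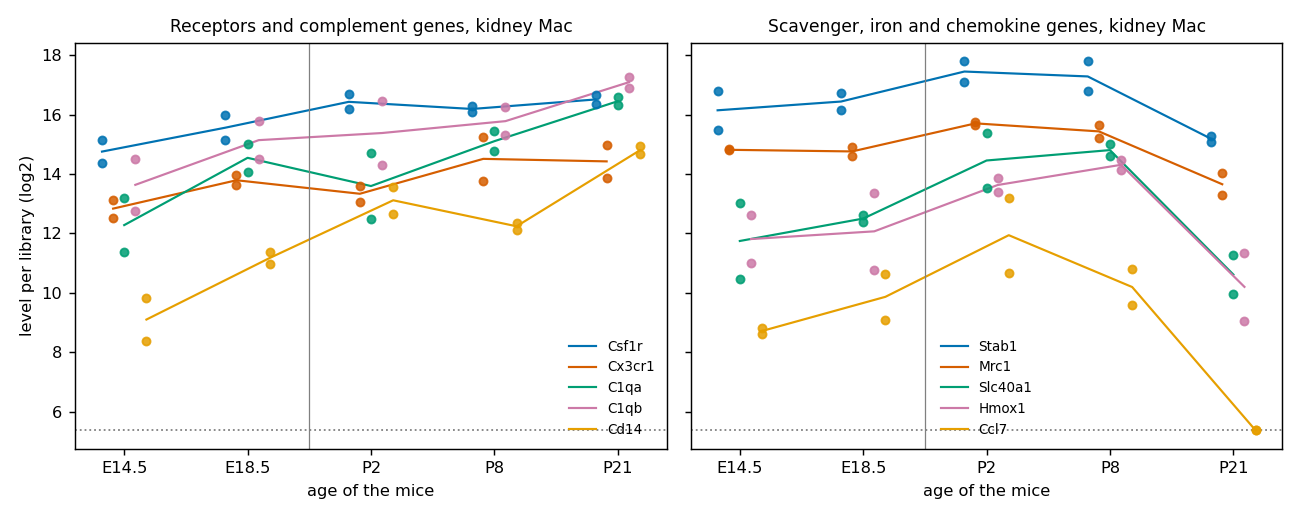
Level (log2) of receptor and complement genes (left) and of scavenger, iron and chemokine genes (right) by age in kidney Mac, with 1 point per library, lines through the mean of each age and a dotted line at the floor. Cd14 lay between 8.37 and 11.39 before and between 12.12 and 14.94 after birth, and Hmox1, Slc40a1 and Ccl7 were lower at P21 than at P8.

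No gene passed the test as lower after birth in the 10 libraries. Of the lists with 10 or more tested members, the cell cycle genes had the lowest median: 26 of 29 tested had negative differences, with a median of -1.39, which was -1.60 and -1.76 with the other scalings. Without the P2 libraries the median was -1.15 over 28 genes tested. None of the cell cycle genes was called by limma in the 10 libraries or in the 48-library fit, and none had groups that did not overlap. The mean level of the list was 9.80, 10.27, 9.67 and 9.73 before birth, 6.85 and 9.70 at P2, 7.88 and 9.77 at P8, and 9.39 and 8.31 at P21. Only P2 replicate 1, P8 replicate 1 and P21 replicate 2 lay well below the embryonic values, and the first of these had the fewest detected transcripts. Mki67, a marker of dividing cells, was at 12.20 to 13.82 before birth and ranged from 7.0 to 14.85 after it.

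Ccl24, a chemokine for eosinophils, was at 8.57 and 8.52 at E14.5, 8.29 and 8.93 at E18.5, 5.52 and 5.40 at P2, and at the floor at P8 and P21. The groups did not overlap, and the difference of -3.18 ± 0.63 (SE) was not called (adjusted p = 0.34 among the 10 libraries, 0.065 in the 48-library fit). Fabp5, a fatty acid binding protein gene, was at 8.79 to 12.15 before birth and at 7.86 or less after it, a difference of -4.09 ± 1.01 (SE) that was called only in the 48-library fit (adjusted p = 0.014). Msh6, a mismatch repair gene chosen after its values were seen, was at 10.28 to 11.16 before and at 5.37 to 8.06 after birth (adjusted p = 0.046 in the 48-library fit).

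Whether the postnatal minus embryonic difference in kidney departed from that of other tissues was also tested. The contrast was the kidney difference minus the mean of the same difference in Mac of brain, liver, lung and skin (38 libraries). It does not measure a step at birth, since P2 against E18.5 alone was not tested. Limma called 48 genes higher (0.346% of 13860) and 15 lower (0.108%), and the split depended on the scaling, being 18 and 21 with quantile normalization and 15 and 18 with a common median. Lung at P8 and P21 and liver at E14.5 had 1 library each, and the lung P8 and P21 libraries had 15263 and 14438 detected transcripts. The libraries also fell into 2 sets by shared offsets of their values below the floor. The smaller set held 2 of 4 embryonic and 6 of 7 postnatal skin libraries, so in skin it moved with age. From kidney it held 1 of 10, P8 replicate 1. With the set as a covariate 40 genes were higher and 13 lower. Leaving out 1 kidney library at a time gave 27 calls without E18.5 replicate 1, 98 without P2 replicate 2, 114 without E14.5 replicate 2, 140 without E18.5 replicate 2 and 167 without P21 replicate 2.

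Cx3cr1 had the smallest adjusted p of the core macrophage genes in this comparison. Its mean over the ages of each period, which the contrast uses, went from 13.31 to 14.09 in kidney and from 14.10 to 15.52 in brain, but from 11.05 to 7.63 in liver, 13.12 to 7.64 in lung and 12.74 to 8.04 in skin. Kidney and brain thus had small positive differences and the other 3 tissues large negative ones. The kidney difference exceeded the mean of the other 4 by 3.83 ± 0.61 (SE, adjusted p = 0.00099 by limma), and against brain and skin alone the adjusted p was 0.050.

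Slc11a1, a phagosomal metal transporter gene, was at 11.64 to 12.79 before and 12.80 to 14.52 after birth in kidney. Its difference was 1.48 in kidney, -0.19 in brain, 0.71 in liver, -5.96 in lung and -4.08 in skin. The kidney excess was 3.86 ± 0.67 (SE, adjusted p = 0.0030 by limma), and with 1 transcript per gene in place of the sum it was not called (adjusted p = 0.63). Cd14 had an excess of 3.21 ± 0.63 (SE, adjusted p = 0.013), with differences of 2.63 in brain, 1.11 in liver, -1.06 in lung and -2.57 in skin.

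Of the 29 core macrophage genes, 8 had a larger difference in kidney: Cx3cr1, Cd14, C1qa, C1qb, C1qc, Stab1, Maf and Aif1. The call of C1qa was lost in 45 of 59 alternatives and those of the other 7 in 1 to 10. Leaving out 1 kidney library ended the call of Maf for 6 libraries and that of Aif1 for 4. C1qb differed by 1.69 in kidney and 1.13 in brain, 0.64 in liver, -5.64 in lung and -2.79 in skin (excess 3.36 ± 0.65, SE, adjusted p = 0.010), and its call was lost without kidney E14.5 replicate 1 or E18.5 replicate 1. Stab1 had the widest contrast, 0.35 in kidney against -8.65 in lung and -4.86 in skin (excess 3.99 ± 0.86, SE, adjusted p = 0.027), and its call was lost without either of those libraries, P2 replicate 1 or P8 replicate 1. With liver and lung left out, of these 8 only Cd14 remained called under an adjusted p of 0.05 (0.0069), and the C1q genes had an adjusted p of 0.14 to 0.51. Cxcl16 had an excess of 3.57 ± 0.83 (SE, adjusted p = 0.046), a call lost in 32 of 59 alternatives, while H2-K1 and H2-D1 had excesses of 1.54 and 0.91 that were not called (adjusted p = 0.17 and 0.35).

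None of the 10 class II genes differed in this test. H2-Aa went from 5.89 to 10.45 in kidney, 6.84 to 12.47 in liver and 8.49 to 17.02 in skin, and the kidney excess was -0.07 ± 1.03 (SE, adjusted p = 0.99 by limma). An interval of this width does not show that the tissues were alike.

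**Figure D4:**
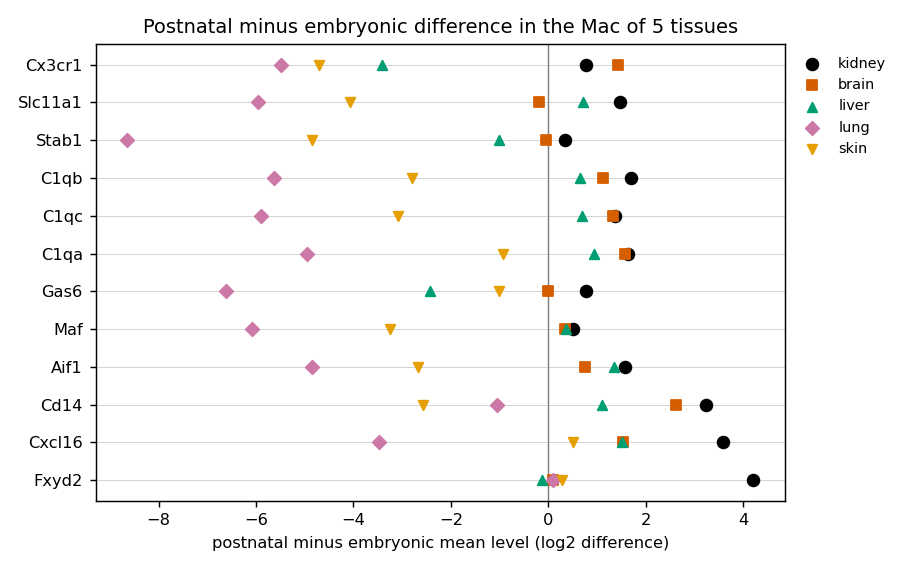
Postnatal minus embryonic difference (log2) between the means over ages for 12 genes in Mac of 5 tissues, with 1 symbol per tissue and black circles for kidney. For Cx3cr1 kidney is at 0.78 and brain at 1.42, with liver, lung and skin at -3.42, -5.48 and -4.70, and for Fxyd2 kidney alone lies away from 0, at 4.21.

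Among the largest kidney excesses outside the macrophage lists were Med12, a subunit of the Mediator complex (5.01 ± 0.95, SE, adjusted p = 0.0084), and Cd93, a C1q-related membrane receptor (4.60 ± 0.94, SE, adjusted p = 0.018). Med12 was at 5.49, 5.37, 6.42 and 10.61 in the embryonic libraries and at 13.96 and 13.71 at P2, 12.13 and 10.91 at P8, and 10.53 and 10.11 at P21. The P2 libraries were highest and E18.5 replicate 2 overlapped the postnatal range. Eif2b2, Fam210a and Pxdc1 had excesses of 4.69, 4.36 and 4.17, and the calls of Eif2b2 and Fam210a were each lost in 38 of 59 alternatives.

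Fxyd2, the gamma subunit of the sodium pump and abundant in nephron epithelium, was at 6.06, 5.37, 5.37 and 6.75 before birth and at 7.07 and 9.77 at P2, 11.39 and 9.0 at P8, and 12.79 and 10.59 at P21. The groups did not overlap, and the other 4 tissues had differences of -0.12 to 0.29. The excess was 4.13 ± 0.57 (SE, adjusted p = 0.00014 by limma). Lrp2, Cubn, Slc34a1 and Slc12a3, all genes of nephron epithelium, were at the floor in every embryonic kidney library, so that their difference could not be negative, and at 8.75 to 13.56 at P21. Lrp2, Cubn and Slc34a1 are members of the proximal tubule list given above, and Slc12a3 of the loop and distal nephron list. The means of those lists are thus not separate from these genes. At P2, where Fxyd2 was at 7.07 and 9.77, the proximal tubule mean was 6.01 and 5.61. The loop and distal nephron mean was 5.44 and 5.38 there, and the collecting duct mean 5.58 and 6.82. The part of epithelial RNA in these excesses was not tested.

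The 5 lowest were Trim29, Crybg1, Tnfrsf23, Kazald1 and P2rx5, all at the floor in the 6 postnatal kidney libraries, so that their kidney difference could not be positive. Trim29 was also at the floor in 3 of 4 embryonic ones, and its mean went from 6.44 to 12.04 in lung and from 5.55 to 10.01 in skin. P2rx5, a purine-gated channel gene, went from 5.93 to 10.82 in skin. In kidney the means went from 6.52 to 5.37 for Trim29 and from 5.80 to 5.37 for P2rx5.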

How the data were processed

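The authors deposited 1 log2 value for each library and Ensembl transcript, per the file headers. The base was inferred from their span of 0.836 to 19.0. The submitters' processing notes name Bowtie 1.1.1, DESeq2 and mm10 but give no roles, and no source used here describes the normalization. Without counts, depth and counting error cannot be given.

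The lowest values of a library lie in a narrow band, and a floor of 5.37, 0.5 above the highest band, was set under all values. Of 37521 transcripts, 36703 matched the mm10 annotation by identifier. A gene's transcripts above the floor were summed on the linear scale and returned to log2. Genes reaching 6.37 in at least 4 libraries of a fit were tested, or in at least 2 for the comparison with other tissues. They entered limma 3.58.1 (R 4.3.3) with 1 mean per age, or per tissue and age, and an intensity trend. Benjamini-Hochberg adjustment was over all genes tested. The scripts were tested on simulated data. Alternatives changed the floor, gene summary, filter, scaling, trend, libraries and block.

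The members and the 33 gene lists were chosen with earlier results of these data known. Named were called genes, markers and defining list members, and for other contrasts the 5 largest calls in each direction, leaving out predicted genes. St3gal6 and Msh6 were picked after their values were seen. The replicate numbers did not pair the libraries (correlations of -0.029 to 0.046 over 10 pairs of ages). Gene coordinates are those of mm10, and promoter sequences are RefSeq's (GRCm38.p6).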

Additional observations from a re-analysis of the deposited data

Results flagged for a closer look

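Single libraries stood apart from the rest of their group in 9 of 98 combinations of gene and group, where chance gives about 1 in 20. In 6 of the 9 all other libraries of the group were at the floor, and that rate does not apply to them. E18.5 replicate 2 was the only embryonic library above the floor for H2-Aa (7.46), H2-Ab1 (8.20) and H2-Eb1 (7.43). Tlr1, a bacterial lipopeptide receptor gene, was at 13.60 in P2 replicate 1, above the other postnatal libraries, and Fabp5 at 7.86 in P8 replicate 1. Ccl24 was at 5.52 in P2 replicate 1 and at 5.40 or the floor in the other 5 postnatal libraries. In the embryonic group Trim29 was at 9.99 in E18.5 replicate 1, and Kazald1 at 9.49 and P2rx5 at 7.08 in E14.5 replicate 1, with the other 3 libraries at the floor.

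For 30 of 49 genes examined here, the postnatal minus embryonic difference in kidney Mac departed from the mean difference in the other 4 tissues. This was by limma's interaction test at an adjusted p under 0.05. Many of the 49 were named because they had been called. Over all 13860 genes tested, 48 were called higher (0.346%) and 15 lower (0.108%). Among receptor, complement and transcription factor genes the kidney excess was 3.83 for Cx3cr1, 3.21 for Cd14, 2.48 for C1qa, 3.36 for C1qb, 3.11 for C1qc, 3.99 for Stab1, 2.67 for Maf, 2.0 for Fcgr3, 3.02 for Fcrls and 3.07 for Tlr1. It was 3.86 for Slc11a1, 3.29 for Gas6, 2.92 for Aif1, 3.57 for Cxcl16 and 3.92 for St3gal6, a sialyltransferase gene. Many of these calls depended on the setting: of 59 alternatives the call was lost in 45 for C1qa, 40 for Fcgr3, 39 for Fcrls, 32 for Tlr1, 32 for Cxcl16 and 29 for St3gal6.

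For genes of nephron epithelium the excess was 4.13 for Fxyd2, 2.77 for Slc12a3, 2.68 for Lrp2, 1.37 for Cubn and 2.39 for Slc34a1. For 4 of these 5 the embryonic kidney libraries were all at the floor, so the size depends on the floor and the direction was fixed. The calls of Slc12a3 and Slc34a1 were lost in 45 and 41 of 59 alternatives. The largest excesses were 5.01 for Med12, 4.69 for Eif2b2, 4.60 for Cd93, 4.36 for Fam210a and 4.17 for Pxdc1, with the calls of Eif2b2 and Fam210a each lost in 38 of 59. The lowest were -3.69 for Trim29, -3.68 for Crybg1, -3.64 for Tnfrsf23, -2.93 for Kazald1 and -2.78 for P2rx5.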

How the results depend on the processing

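The number of genes called between postnatal and embryonic kidney Mac was 3. It was 0 without a filter on low values, 0 with quantile normalization, 0 with a common median, 0 without an intensity trend and 0 with 2 groups in place of 1 mean per age. It was 10 without the P2 libraries, 10 without these and P8 replicate 1 (chosen after seeing the data), and 55 in the 48-library fit. Leaving out 1 library gave 0 to 5. Of 23 alternatives, the call was lost in 10 for H2-K1, 10 for H2-D1 and 15 for Cxcl16, with differences of 1.57 to 2.89, 1.69 to 3.25 and 2.88 to 4.31. The cause of these losses was not tested. With the replicate number as a block, 3 genes were called, and 44 against other tissues.

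Against other tissues 63 genes were called, with 39 without a floor, 39 with quantile normalization, 33 with a common median, 157 without P2 and 27 to 167 leaving out 1 library. For E18.5 minus E14.5 the 48-library fit gave 7 in place of 0. For P21 minus P8 it gave 253 in place of 0, and a floor raised by 1 gave 3.

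Some postnatal minus embryonic differences that were not called turned sign. With quantile normalization the sign turned for Cx3cr1 (-0.24), Stab1 (-0.53), Maf (-0.43), Gas6 (-0.15), Fcrls (-0.18), Mrc1 (-0.88) and Hmox1 (-0.07). With 1 transcript per gene it turned for Slc11a1 (-0.29). With a common median it turned for Stab1 (-0.02) and Mrc1 (-0.22), without P2 for Stab1 (-0.06) and Mrc1 (-0.24), and without P2 and P8 replicate 1 for both (-0.31 and -0.13). Leaving out 1 library gave 0.02 to 0.68 for Stab1 and 0.02 to 0.27 for Mrc1. Ccl7 was at 0.21 with a raised floor, at -1.81 without P2 and P8 replicate 1, and at -0.54 to 0.30 leaving out 1 library, positive without E18.5 replicate 2, P2 replicate 2 or P8 replicate 2.

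With 2 libraries per age and no counts, differences between single ages are limited by the spread between libraries, and how far a level near the floor reflects few molecules is unknown.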

Other observations

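Immediate early and stress genes respond within minutes to handling or activation. Their postnatal minus embryonic differences were positive in 11 of 12 tested, with a median of 1.45 beside 0.09 for all genes. Limma called 0 of them in the 10 libraries or in the 48-library fit. Their mean level was 7.37 to 8.10 before birth, and 7.89 and 8.09 at P2, 10.17 and 8.10 at P8, and 8.77 and 8.46 at P21, so P8 replicate 1 was the highest. Junb, a transcription factor of this group, was at 7.94 and 7.59 at E14.5, 10.11 and 10.44 at E18.5, and 11.23 to 12.75 after birth, with groups that did not overlap (difference 2.96 ± 0.61, SE, adjusted p = 0.37 by limma). Ier2 also had every postnatal library above every embryonic one.

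Lyve1, a hyaluronan receptor of perivascular macrophages, was at 11.68 to 13.72 before birth, 13.43 and 11.09 at P2, 7.99 and 7.32 at P8, and 11.75 and 5.37 at P21. P21 replicate 1 lay above both P8 libraries and replicate 2 at the floor, and the difference of -3.0 ± 1.12 (SE) was not called (adjusted p = 0.61 by limma). Interferon response genes divided evenly, 10 of 19 with a positive difference and a median of 0.14, and 0 were called by limma in either fit.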
